A study of Mus musculus with 6 samples.

Results

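The genes described here are 10 heat shock proteins and chaperones, picked by symbol from a deposited table of 22851 genes. They are Hsp90aa1 and Hsp90ab1 of the Hsp90 family, Hspa8, Hspa1a and Hspa1b of the Hsp70 family, the Hsp70 partners Hsph1 and Dnajb1, the small heat shock protein Hspb1, and the mitochondrial pair Hspd1 and Hspe1. All 10 were in the table and all 10 had enough counts to be tested. RNA was sequenced from cultured mouse cells of 2 genotypes on the C57BL/6J background, 3 libraries from wild-type (WT) mice and 3 from mice in which Edf1 had been knocked out with CRISPR/Cas9 (Edf1 KO). In both genotypes radial glial cells, the progenitors lining the brain ventricles, were taken from newborn brains (P0 to P3), grown in medium with serum, and then kept without serum for 6 days so that they formed multiciliated ependymal cells. The knockout is of the whole animal as far as the labels say, the labels name no editing site or founder line, and they call the replicates biological without saying whether cells of several pups were pooled. The p-values below measure the spread between these libraries.

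Heat shock proteins are molecular chaperones that bind unfolded or partly folded proteins. Hsp70 proteins bind exposed hydrophobic stretches in a cycle driven by ATP, in which J-domain proteins deliver the substrate and nucleotide exchange factors release it. Hsp90 acts later, on nearly folded clients such as kinases and steroid receptors, and small heat shock proteins hold unfolded proteins without using ATP. The transcription factor Hsf1 raises the inducible members when unfolded proteins build up, through heat shock elements, which are inverted repeats of the letters GAA in promoters. In ciliated cells, cytosolic chaperones and their partners also assemble the dynein arms before these enter the cilium.

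The 10 genes did not move as 1 group. Hsp90aa1, Hsph1 and Hspa8, which encode cytosolic chaperones, were lower in the Edf1 KO libraries. The mean of Hsp90aa1 fell by 32.8%, that of Hsph1 fell by 23.6% and that of Hspa8 fell by 14.9%. Hspb1 and Hspa1b, whose measured levels were low, were 1.66-fold and 1.99-fold higher. How reads were divided between Hspa1b and its near-identical copy Hspa1a is uncertain, and their sum had a log2 fold change of 0.60. Dnajb1, Hsp90ab1, Hspd1, Hspe1 and Hspa1a did not pass the test. With calls made below 0.05 (Benjamini-Hochberg) from the quasi-likelihood F test of edgeR, 5 of 10 genes were called, 2 higher and 3 lower, where 26.9% of all 14243 tested genes were called (12.7% higher and 14.2% lower). Their median log2 fold change was -0.022 and that of all tested genes 0.0029, while the median absolute log2 fold change was 0.28 for the 10 genes and 0.15 for all tested genes.

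Library totals were 13071766 to 28087006 counts, and the 10 genes together took 0.839% to 0.875% of the counts in WT and 0.701% to 0.719% in Edf1 KO libraries. Edf1 itself, the targeted gene, had 82.6, 85.9 and 80.2 CPM (read counts scaled to library size) in WT replicates 1, 2 and 3 and 9.84, 10.9 and 13.2 CPM in the Edf1 KO, so every library labelled as the knockout had less Edf1 than every WT library. On the first principal component of log2 CPM (60.7% of the variance) the genotypes separated, and on the second (16.1%) WT replicate 2, which had the fewest counts, lay apart from WT replicates 1 and 3. All 12 listed markers of multiciliated ependymal cells were present in every group and called lower in the Edf1 KO, with a summed level of 2479 to 2729 CPM in WT and 1442 to 1529.8 CPM in Edf1 KO libraries. Of the 12 microglial markers, 10 were lower (2087 to 2222 CPM against 1411 to 1454 CPM), and all 9 tested of 13 markers of fibroblasts, mural and endothelial cells were higher (881 to 937 CPM against 1171 to 1292 CPM). Acta2 (mean 475 CPM in WT and 586 CPM in the Edf1 KO) and Tagln (288 and 331 CPM) made up most of this sum. The untested Rgs5, Pecam1, Cdh5 and Cldn5 had at most 26 counts in any library, which left Kdr as the only tested endothelial marker. Of 12 radial glia and astrocyte markers, 3 were higher and 2 lower (10732 to 11251 CPM against 11671 to 12100.5 CPM), and without WT replicate 2 these were 5 and 4. The neuron list (254 to 330.02 CPM against 274 to 290.3 CPM) had 2 of 7 tested markers lower, and the oligodendrocyte list (453 to 492 CPM against 423 to 441 CPM) had 1 of 8 higher and 1 lower, with only the lower call left without WT replicate 3, Edf1 KO replicate 1 or Edf1 KO replicate 3. Most of the neuron sum came from Map2 (mean 260 CPM in WT and 242 CPM in the Edf1 KO), while Dcx and Rbfox3 were below 1 CPM in every library. Most of the oligodendrocyte sum came from Cnp (350 CPM in WT and 295 CPM in the Edf1 KO). The untested markers of these lists, Snap25, Gad2, Slc17a6, Nefl, Sox10 and Mog, had at most 20 counts in any library. No listed marker was at 0 in all 6 libraries. The part of these shifts in cell markers in the results below was not tested. In bulk RNA, fewer cells of a type and less RNA per cell cannot be told apart.

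**Figure D1:**
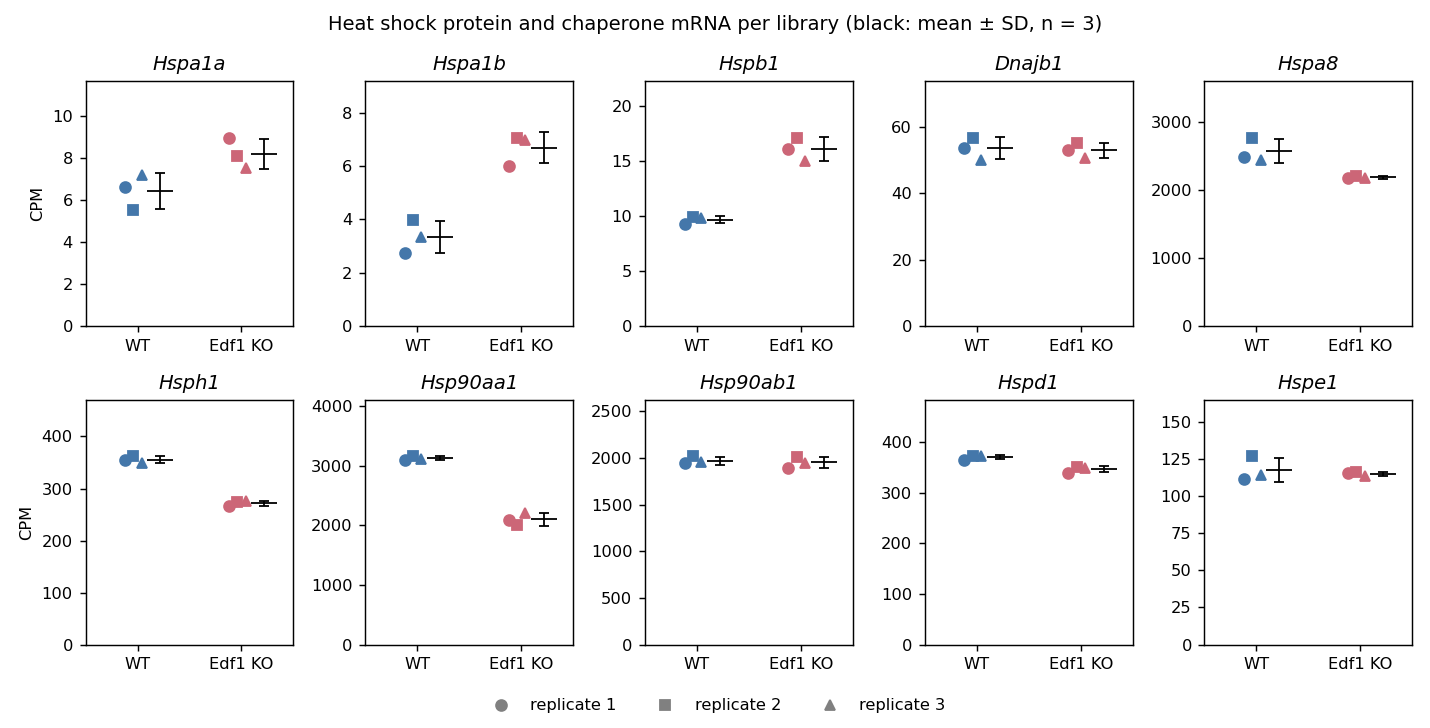
Level of each of the 10 genes in every library, in CPM on linear axes that start at 0; each point is 1 library, its shape gives the replicate number, and the black bar is the mean ± SD of 3 libraries. The Edf1 KO points of Hspa1a, Hspa1b and Hspb1 lie above all WT points. Those of Hsp90aa1, Hsph1, Hspa8 and Hspd1 lie below all WT points, and those of Hsp90ab1, Dnajb1 and Hspe1 lie among them. Hspa1a and Hspd1 were not called, and 43.3% of all tested genes had groups that did not overlap.

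The cytosolic Hsp90 pair parted. Hsp90aa1 encodes Hsp90 alpha, the form that heat and other stresses raise further, and it was the most abundant of the 10 genes in WT. It had 3097, 3162 and 3116 CPM in WT replicates 1, 2 and 3 and 2087, 1999.9 and 2214 CPM in Edf1 KO replicates 1, 2 and 3. Every Edf1 KO library lay below every WT library, by far more than the spread within either genotype. The means were 3125 ± 33.7 CPM in WT and 2100.3 ± 108 CPM in the Edf1 KO (SD, n = 3 each). On the log2 scale this is -0.57 (SE 0.047; edgeR adjusted p = 3.13e-06), and 5.43% of all tested genes had a lower value.

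Hsp90ab1 encodes Hsp90 beta, the constitutive form. WT libraries held 1940.3, 2019.5 and 1954 CPM of it, and Edf1 KO libraries 1893, 2012 and 1949 CPM, so the genotypes overlapped. Its log2 fold change was -0.015 (SE 0.044; edgeR adjusted p = 0.840). The interval of 1.96 SE on either side runs from -0.10 to 0.071, and a fall as large as that of Hsp90aa1 lies outside it. The counts of Hsp90aa1 over Hsp90ab1 were 1.60, 1.57 and 1.59 in the WT libraries, compared with 1.10, 0.994 and 1.14 in the Edf1 KO libraries. The ratio thus went from 1.59 ± 0.017 to 1.08 ± 0.074 (SD, n = 3 each), and no Edf1 KO library reached the WT range. A two-sided exact permutation test over the 6 libraries gave p = 0.1, the smallest it can give with 3 against 3, and 0.167 after Benjamini-Hochberg adjustment over the 5 ratios tested. In the GENCODE M21 annotation (GRCm38), Hsp90aa1 lies on chromosome 12 from 110690605 to 110702728 on the minus strand and Hsp90ab1 on chromosome 17 from 45567775 to 45573271 on the minus strand. Their coding sequences are identical at 75.6% of aligned bases.

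Reads of some of these genes can also map to copies elsewhere, and the sources used here do not give the rule for such reads. For Hsp90aa1, 62.9% of the 31-base words of the longest annotated transcript also occur in a transcript of another annotated gene, most of them in the pseudogene Gm12346 (57.0%). The share was 61.2% for Hspa8, 58.4% for Hspb1, 55.8% for Hspd1, 16.6% for Hsp90ab1, 14.1% for Hspe1, 0.475% for Dnajb1 and 0 for Hsph1. The levels of Hsp90aa1, Hspa8, Hspb1 and Hspd1 are uncertain to that extent. Hsph1, whose fall is described next, has no such word.

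Of the cytosolic Hsp70 genes and partners among the 10, Hspa8 and Hsph1 were called lower, Hspa1b higher, and Dnajb1 and Hspa1a were not called. Hspa8 encodes Hsc70, the constitutive Hsp70, which also strips clathrin from vesicles. Its WT levels were 2491, 2772 and 2444 CPM, against 2178, 2204 and 2173 CPM in the Edf1 KO. The WT libraries spread more widely than the Edf1 KO libraries, and WT replicate 2 was the highest, but the lowest WT library still lay above the highest Edf1 KO library. The means were 2569 ± 177 and 2185 ± 16.6 CPM (SD, n = 3 each), a log2 fold change of -0.23 (SE 0.052; edgeR adjusted p = 0.00517). Hspa8 lies on chromosome 9 from 40800984 to 40810087 on the plus strand. Merged over all annotated transcripts, its exons overlap the small nucleolar RNA genes Snord14c, Snord14d and Snord14e on the same strand by 262 bases. Merged exons include those of retained introns, so these genes need not lie in exons of the spliced transcript.

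Hsph1 encodes Hsp110, an Hsp70 relative that acts as a nucleotide exchange factor and helps Hsp70 to dissolve aggregates. The 3 WT levels were 354, 362 and 349 CPM, against 266, 273 and 276 CPM in the Edf1 KO. Both genotypes were tight, with coefficients of variation of 1.85% and 1.78%, and they did not overlap. The means were 355 ± 6.58 and 272 ± 4.84 CPM (SD, n = 3 each), a log2 fold change of -0.39 (SE 0.044; edgeR adjusted p = 3.82e-05). Hsph1 lies on chromosome 5 from 149614287 to 149636376 on the minus strand. The counts of Hsph1 over Hspa8 were 0.142, 0.131 and 0.143 in WT, compared with 0.122, 0.124 and 0.127 in the Edf1 KO. All Edf1 KO ratios lay below all WT ratios, although WT replicate 2 lay close to them (two-sided exact permutation p = 0.1, 0.167 adjusted over the 5 ratios).

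Dnajb1 encodes Hsp40, the stress-inducible J-domain protein that hands substrates to Hsp70. Its WT levels were 53.7, 56.8 and 50.2 CPM, against 53.1, 55.2 and 50.6 CPM in the Edf1 KO. The genotypes covered the same range, with means of 53.5 ± 3.32 and 52.97 ± 2.31 CPM (SD, n = 3 each). The log2 fold change was -0.015 (SE 0.065; edgeR adjusted p = 0.891), and 1.96 SE on either side runs from -0.14 to 0.11. The counts of Dnajb1 over Hspa8 were higher in all Edf1 KO libraries, at 0.0244, 0.0251 and 0.0233, than in the WT libraries, at 0.0215, 0.0205 and 0.0205 (two-sided exact permutation p = 0.1, 0.167 adjusted over the 5 ratios). Dnajb1 lies on chromosome 8 from 83608193 to 83612653 on the plus strand.

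Hspa1a and Hspa1b encode the stress-inducible Hsp70 and are neighbours on chromosome 17, each made of 1 exon on the minus strand, from 34969190 to 34972156 and from 34956436 to 34959238. Their coding sequences (1923 and 1926 bases) are identical at 99.4% of aligned bases and differ at 11. Of the 31-base words of Hspa1a, 63.8% occur in Hspa1b, 17.4% in Gm20481, 12.1% in the neighbouring gene Hspa1l, and 70.1% in any other annotated gene. For Hspa1b, 67.7% occur in Hspa1a and 68.1% in any other gene. Exons of Hspa1a also overlap those of Gm20481 on the opposite strand by 564 bases, and whether the counting used strand is not given in the sources used here. How reads were divided between the copies is therefore uncertain, and the sum of both rows is the firmer value.

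Taken singly, Hspa1b was called and Hspa1a was not. Hspa1b measured 2.75, 3.96 and 3.35 CPM in WT, against 6.03, 7.08 and 6.97 CPM in the Edf1 KO (73, 51 and 62 counts against 98, 127 and 197). The lowest Edf1 KO library lay above the highest WT library. The log2 fold change of Hspa1b was 1.04 (SE 0.17; edgeR adjusted p = 0.000608), and 98.7% of all tested genes had a lower value. Hspa1a measured 6.63, 5.52 and 7.19 CPM in WT, against 8.98, 8.08 and 7.54 CPM in the Edf1 KO. Its groups did not overlap either, but WT replicate 3 and Edf1 KO replicate 3 were close, and its log2 fold change of 0.32 (SE 0.14) missed the threshold (edgeR adjusted p = 0.0997). The counts of Hspa1b over Hspa1a were 0.415, 0.718 and 0.466 in WT, compared with 0.671, 0.876 and 0.925 in the Edf1 KO. These ratios overlapped between the genotypes (two-sided exact permutation p = 0.2, 0.25 adjusted over the 5 ratios), so a difference between the copies was not shown.

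Summed before the fit, Hspa1a and Hspa1b came to 9.38, 9.48 and 10.5 CPM in WT, against 15.001, 15.2 and 14.5 CPM in the Edf1 KO. The sum was steadier than either row, with means of 9.80 ± 0.64 and 14.9 ± 0.33 CPM (SD, n = 3 each). Its log2 fold change was 0.60 (SE 0.095; edgeR adjusted p = 0.000532), and every Edf1 KO library was above every WT library. The groups of 7 of the 10 genes did not overlap, 3 higher and 4 lower, where 43.3% of all tested genes had groups that did not overlap (21.3% higher and 22.1% lower).

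The promoters of the Hspa1 pair are shown because the copies are alike outside the coding sequence too. The letters come from the RefSeq promoter table (GRCm38.p6), run from 250 bases before the start site to the base before it, and are written 5′ to 3′ on the minus strand. Capitals mark the GAA and TTC of a match to the heat shock element letters GAANNTTC or TTCNNGAA.
Hspa1a, chr17:34972157-34972406: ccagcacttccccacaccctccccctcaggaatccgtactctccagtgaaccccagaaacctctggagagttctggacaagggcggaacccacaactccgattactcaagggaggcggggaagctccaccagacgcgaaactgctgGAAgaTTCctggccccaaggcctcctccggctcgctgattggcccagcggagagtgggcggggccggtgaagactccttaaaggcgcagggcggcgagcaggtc
Hspa1b, chr17:34959239-34959488: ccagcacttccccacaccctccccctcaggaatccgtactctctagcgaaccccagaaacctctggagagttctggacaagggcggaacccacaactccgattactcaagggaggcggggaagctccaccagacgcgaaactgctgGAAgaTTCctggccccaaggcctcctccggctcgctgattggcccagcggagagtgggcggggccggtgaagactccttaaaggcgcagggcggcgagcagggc
Counted from the first base shown, they differ at 3 of 250 bases, C44T, T47C and T249G, with the base of Hspa1a first. The match lies in the same place in both, with its first base 104 bases before the start site.

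Hspb1, which encodes the small heat shock protein Hsp25 (HSP27 in humans), a holder of unfolded proteins that also binds actin filaments, was also higher. Its WT levels were 9.27, 9.87 and 9.84 CPM, against 16.1, 17.1 and 14.9 CPM in the Edf1 KO. The groups stood well apart, with means of 9.66 ± 0.34 and 16.1 ± 1.08 CPM (SD, n = 3 each). The log2 fold change was 0.73 (SE 0.097; edgeR adjusted p = 0.000126), and 96.8% of all tested genes had a lower value. Hspb1 lies on chromosome 5 from 135887919 to 135889563 on the plus strand, and 56.7% of its 31-base words occur in the pseudogene Hsp25-ps1. Its promoter is shown because it holds a pair of heat shock element matches 20 bases apart. Their first bases lie 117 and 97 bases before the start site (RefSeq table, GRCm38.p6, plus strand, same capitals).
Hspb1, chr5:135887669-135887918: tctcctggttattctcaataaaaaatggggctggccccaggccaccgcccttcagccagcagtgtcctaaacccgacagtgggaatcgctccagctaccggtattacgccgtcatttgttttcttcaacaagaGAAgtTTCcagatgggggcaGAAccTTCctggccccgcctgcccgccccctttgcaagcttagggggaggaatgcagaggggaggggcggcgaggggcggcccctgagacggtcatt

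The mitochondrial chaperonin genes were not called. Hspd1 encodes Hsp60, the barrel in which matrix proteins fold, and Hspe1 encodes Hsp10, its lid. Hspd1 measured 366, 373 and 372 CPM in WT, against 340.1, 352 and 349 CPM in the Edf1 KO. All Edf1 KO libraries were lower, but the step was small, with means of 370.2 ± 3.74 and 347 ± 6.10 CPM (SD, n = 3 each), a log2 fold change of -0.093 (SE 0.043; edgeR adjusted p = 0.127). With the GC and length correction this value was -0.032. Hspe1 measured 112, 127 and 114 CPM in WT, against 115, 116 and 113 CPM in the Edf1 KO, so the genotypes overlapped, with WT replicate 2 the highest library. Its log2 fold change was -0.030 (SE 0.059; edgeR adjusted p = 0.752). The counts of Hspd1 over Hspe1 were 3.28, 2.94 and 3.26 in WT, compared with 2.95, 3.02 and 3.08 in the Edf1 KO, with overlap (two-sided exact permutation p = 0.4, also 0.4 adjusted over the 5 ratios). For the ratio, 3.16 ± 0.19 in WT and 3.02 ± 0.062 in the Edf1 KO (SD, n = 3 each) differed by less than the WT spread.

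Hspd1 and Hspe1 stand head to head on chromosome 1, Hspd1 from 55077835 to 55088243 on the minus strand and Hspe1 from 55088132 to 55091307 on the plus strand, and their annotated exons overlap by 112 bases on opposite strands. A stretch of 30 bases between the start site of Hspe1 and the second listed start site of Hspd1 is shown because 3 motif matches overlap in it. Together they form 1 unbroken run of alternating TTC and GAA. The stretch lies after the first listed start site of Hspd1 (55088243), within the annotated gene. It is written for each gene on its own strand, and the capitals have the same meaning.
Hspe1, chr1:55088053-55088082, plus strand: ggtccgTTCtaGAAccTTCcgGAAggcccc
Hspd1, chr1:55088053-55088082, minus strand: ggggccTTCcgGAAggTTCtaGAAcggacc
In Hsph1, 1 match lies before the first listed start site, with its first base 33 bases upstream. Other matches begin 36 and 41 bases after that site. The GENCODE gene begins further upstream, at 149636376, so the match shown lies inside the annotated gene.
Hsph1, chr5:149636351-149636380, minus strand: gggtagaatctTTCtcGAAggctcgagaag

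The motifs searched were GAANNTTC and TTCNNGAA, each of which reads the same on both strands. At least 1 of them was found in a window of 250 bases before to 50 bases after a start site for 6 of the 7 genes that the RefSeq table lists among the 10. Neither was found in the windows of Dnajb1. Counted by window, 7 of the 10 windows of these genes held at least 1, where 15.1% of all 32851 windows of that length in the table did. The windows of Hspa1a and Hspa1b are identical at 296 of 300 bases and hold the same match. Both windows of Hsph1 overlap, and those of Hspd1 and Hspe1 share the 30 bases shown above, so the windows are not independent. The genes with a motif included genes that were higher (Hspb1, Hspa1b), lower (Hsph1) and not called (Hspa1a, Hspd1, Hspe1) in the Edf1 KO. A match of letters is a description and does not show binding.

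**Figure D2:**
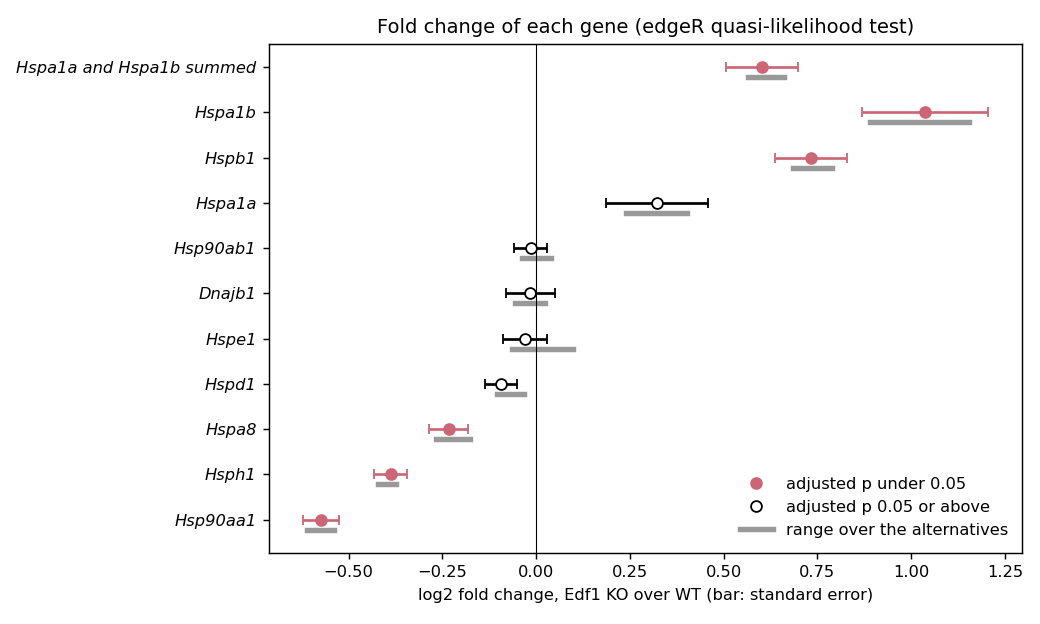
Log2 fold change of Edf1 KO over WT for each of the 10 genes and for the sum of Hspa1a and Hspa1b, with the standard error as a bar; filled points had an adjusted p-value under 0.05 and the grey line spans the values under the other processing choices. Hspa1b stands at 1.04, Hspb1 at 0.73 and the Hspa1 sum at 0.60, while Hspa8, Hsph1 and Hsp90aa1 stand at -0.23, -0.39 and -0.57.

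Levels can be compared between genes per length of merged exons, as CPM per kilobase of exon (RPKM). In WT the order was Hsp90aa1 (795 ± 8.58), Hsp90ab1 (657 ± 14.1), Hspa8 (597 ± 41.2), Hspd1 (140.1 ± 1.42), Hspe1 (79.8 ± 5.53), Hsph1 (48.9 ± 0.91), Dnajb1 (16.7 ± 1.04), Hspb1 (9.37 ± 0.33), Hspa1a (2.17 ± 0.29) and Hspa1b (1.20 ± 0.22), in RPKM (SD, n = 3 each). No neighbours in this order overlapped between libraries, although Hsp90ab1 at its lowest (647) and Hspa8 at its highest (644) nearly met. In the Edf1 KO Hsp90ab1 (651 ± 19.9) came first, ahead of Hsp90aa1 (534 ± 27.4) and Hspa8 (508 ± 3.87). There the neighbours Hsp90aa1 and Hspa8 overlapped, and so did Dnajb1 (16.5 ± 0.72) and Hspb1 (15.6 ± 1.05). By WT rank, the genes called higher stood at places 8 and 10 of this order and the genes called lower at places 1, 3 and 6. The merged exons include those of retained introns, which lowers the value per length. They come to 3931 bases for Hsp90aa1, 2999 for Hsp90ab1 and 4301 for Hspa8, against 3281, 2520 and 3158 bases in the longest annotated transcript. Hspa8 shortens the most, so its place among these 3 genes depends on the length used in both genotypes and is not firm. The shared words given above apply to these levels as well.

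**Figure D3:**
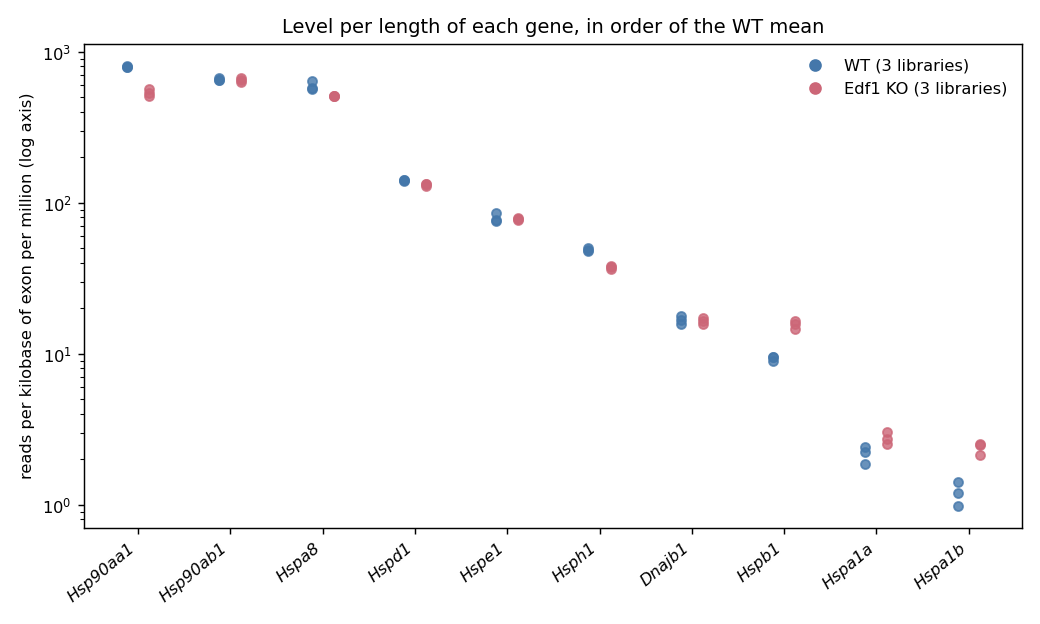
Level of each gene in RPKM on a log axis, ordered by the WT mean, with 1 point per library in each genotype. The range runs from Hsp90aa1 at 795 to Hspa1b at 1.20 in WT, and Hspb1 comes up to the level of Dnajb1 in the Edf1 KO.

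Other genes of the chaperone network were then examined through 10 lists written by hand, which hold 133 tested genes. Of these, 7 were called higher and 47 lower, which is 40.6% of them, beside 26.9% of all tested genes, with a median log2 fold change of -0.12, beside 0.0029. Over all tested genes, 12.7% were called higher and 14.2% lower, and each list's count below reads against these shares. Without the R2TP and cilia lists, 7 were higher and 31 lower of 117 (32.5%, nearer to the 26.9% of all tested genes), with a median of -0.091. Hsf1, the regulator of the heat shock response, averaged 36.7 ± 2.71 CPM in WT, against 32.4 ± 3.68 CPM in the Edf1 KO (SD, n = 3 each), with overlap, and its log2 fold change of -0.17 (SE 0.090) missed the threshold (edgeR adjusted p = 0.193). Of the 4 tested heat shock factors and regulators only Hsbp1, whose product binds and restrains Hsf1, was lower (-0.26, SE 0.059, and -0.13 with the GC and length correction). Hsf2 (-0.20) and the scarcely counted Hsf4 (0.78, SE 0.31, with 17 to 55 counts per library) did not pass. Without WT replicate 2, 3 of these 4 genes were called, 1 higher and 2 lower, and without Edf1 KO replicate 3, 2 were lower.

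Among the partners of Hsp90, the Hsp90 cochaperones had 9 of 19 tested genes lower and 1 higher, with a median of -0.16. Nudc, a cochaperone that also acts with cytoplasmic dynein, measured 521, 616 and 498 CPM in WT, against 317, 313 and 324 CPM in the Edf1 KO. The groups stood well apart, and the log2 fold change was -0.78 (SE 0.068; edgeR adjusted p = 4.98e-06), although 35.7% of its 31-base words occur in the pseudogene Nudc-ps1. Ahsa1, which speeds up the ATPase of Hsp90, fell from 299 ± 26.1 to 205 ± 2.69 CPM (-0.54, SE 0.060). Ptges3, the p23 protein that holds Hsp90 in its closed form, rose from 217 ± 13.5 to 262 ± 5.98 CPM (0.27, SE 0.053). Stip1 (-0.30), which links Hsp70 to Hsp90, was lower, and Cdc37 (-0.027), which brings kinases to Hsp90, did not pass. Without Edf1 KO replicate 2 the calls of this list went from 10 to 6.

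Among the partners of Hsp70, 3 of 16 tested genes of the list of other Hsp70 and Hsp110 proteins and exchange factors were lower and none was higher, with a median of -0.11. Hspa2, an Hsp70 best known from male germ cells, measured 309.7, 351 and 306 CPM in WT, against 182, 178 and 189 CPM in the Edf1 KO. It was lower in every Edf1 KO library, by a log2 fold change of -0.82 (SE 0.059; edgeR adjusted p = 1.24e-06). Hspbp1, an exchange factor, was lower (-0.35, SE 0.057), while Bag3, an exchange factor that Hsf1 also raises, did not pass (0.12). The calls of this list went to 5 without WT replicate 2, 1 of them higher. Of 24 tested J-domain proteins of the cytosol and nucleus, 6 were lower and 2 higher, with a median of -0.030. Dnajc6, the auxilin that brings Hspa8 to clathrin coats, fell from 8.83 ± 0.75 to 5.17 ± 0.62 CPM (-0.75, SE 0.14), and Dnajb12 from 76.7 ± 4.24 to 57.8 ± 1.94 CPM (-0.40, SE 0.060). Dnajc9, a histone chaperone, rose from 75.5 ± 1.94 to 88.3 ± 0.63 CPM (0.23, SE 0.053). Dnajb5 was called at 0.28 (SE 0.088; edgeR adjusted p = 0.0347), a call lost without WT replicate 1, Edf1 KO replicate 2 or Edf1 KO replicate 3 (edgeR adjusted p = 0.0971, 0.115 and 0.126), with DESeq2, or with the GC and length correction.

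Of the other small heat shock proteins, Hspb8 went the opposite way to Hspb1. Hspb8, which works with Bag3 in the removal of misfolded proteins, measured 249, 278 and 238 CPM in WT, against 171, 173 and 166 CPM in the Edf1 KO. All Edf1 KO libraries were lower, with a log2 fold change of -0.58 (SE 0.059; edgeR adjusted p = 1.63e-05). Cryab (0.096), the lens and glial alpha B crystallin, did not pass, and 1 of the 4 tested genes of this list was called. Without WT replicate 2, 2 were called, 1 higher and 1 lower.

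The chaperonin TRiC, the cytosolic folding barrel for actin and tubulin, and prefoldin, which hands them over, had 8 of 16 tested genes lower and none higher, with a median of -0.16. Cct7 fell from 300.3 ± 17.6 to 240.3 ± 5.92 CPM (-0.32, SE 0.052) and Pfdn2 from 58.9 ± 2.54 to 48.4 ± 0.99 CPM (-0.28, SE 0.059, and -0.18 with the GC and length correction). Exons of Pfdn2 overlap those of Klhdc9 on the opposite strand by 535 bases, and those of Cct7 overlap Pradc1 by 214 bases. The falls in this list were small, and 3 genes were called without Edf1 KO replicate 1, 2 or 3 and 5 without WT replicate 1. Among 15 tested mitochondrial chaperones and proteases, which work beside Hspd1 and Hspe1, 2 were lower and none higher (median -0.046). These were Trap1, the mitochondrial Hsp90, from 195 ± 9.08 to 154 ± 1.60 CPM (-0.34, SE 0.051), and Dnajc15, a J-domain protein of the inner membrane, from 58.4 ± 5.91 to 43.03 ± 1.33 CPM (-0.43, SE 0.074). Hspa9, the mitochondrial Hsp70, did not pass (-0.030).

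Of the endoplasmic reticulum chaperones, 4 of 19 tested genes were higher and 1 lower (median 0.025), a share called about that of all tested genes (26.9%). The difference from the cytosolic lists was not tested. Canx, the membrane lectin calnexin, rose from 849.6 ± 48.1 to 991 ± 30.4 CPM (0.22, SE 0.051). Hspa5 (0.16), the reticulum's Hsp70, and Hsp90b1 (0.19), its Hsp90, were also called higher. Dnajb9 (0.24, SE 0.062) lost its call without WT replicate 1 or Edf1 KO replicate 2, where edgeR gave adjusted p = 0.0676 and 0.0722. Creld2 (-0.25, SE 0.077) lost its call without Edf1 KO replicate 1, 2 or 3, where edgeR gave adjusted p = 0.100, 0.0941 and 0.0823. Its value was -0.15 without WT replicate 2, and also with the GC and length correction, which ended the call. The list had 2 calls higher without Edf1 KO replicate 2, 2 higher and 1 lower without WT replicate 1, 3 higher without Edf1 KO replicate 1, and 6 higher and 2 lower without WT replicate 2.

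Chaperone partners with roles in cilia were lower throughout. All 4 genes of R2TP, a complex that works with Hsp90 in building large assemblies including dynein arms, were lower, with a median of -0.38. Ruvbl2 fell from 223 ± 23.8 to 129.8 ± 5.73 CPM (-0.78, SE 0.071) and Ruvbl1 from 139 ± 9.36 to 106 ± 3.22 CPM (-0.39, SE 0.060), while 64.7% of the 31-base words of Ruvbl1 occur in the pseudogene Gm5837 and exons of Ruvbl2 overlap those of Gys1 and Lhb on the opposite strand by 448 bases. All 12 tested genes of the cilia list, which holds dynein arm assembly factors beside genes with chaperone family names, were lower, with a median of -0.57. The dynein arm assembly factors Dnaaf1 (39.2 ± 4.88 to 16.2 ± 1.77 CPM, -1.26, SE 0.11) and Zmynd10 (103 ± 8.17 to 45.9 ± 3.86 CPM, -1.15, SE 0.076) had the lowest values, and exons of Dnaaf1 overlap those of Taf1c on the opposite strand by 584 bases. Dnajb13, a J-domain protein of the radial spokes, was at -0.48. Hspb11, a subunit of intraflagellar transport that has a small heat shock protein symbol only, was at -0.40. These lists move with the markers of multiciliated cells given above, and the share of such cells was not measured.

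**Figure D4:**
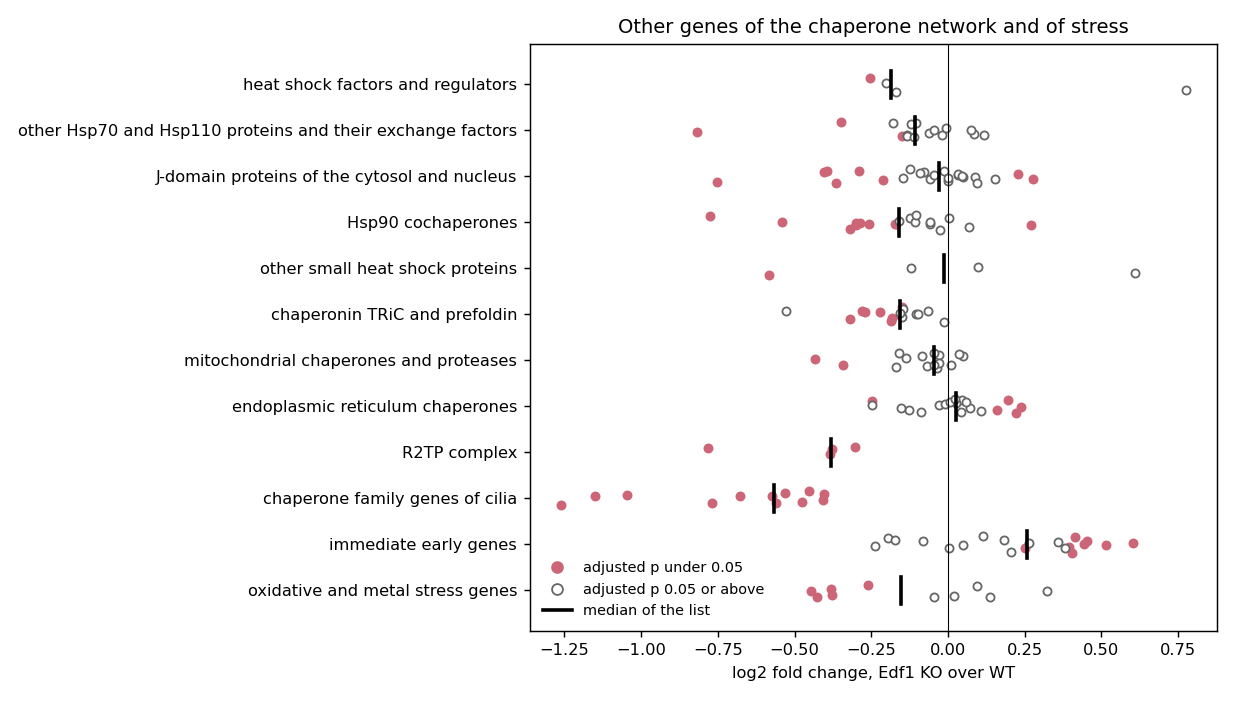
Log2 fold change of Edf1 KO over WT for every tested gene of the 10 chaperone lists and 2 lists of stress genes; filled points had an adjusted p-value under 0.05 and black bars are list medians. The R2TP and cilia lists lie wholly below 0, with medians of -0.38 and -0.57, and the immediate early list has its called genes above 0.

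Genes that respond to handling or oxidative stress were examined beside the inducible heat shock genes. Of 20 tested immediate early genes 8 were higher and none lower, where 12.7% of all tested genes were higher, with a median of 0.26 (summed level 435 to 464 CPM in WT and 469.9 to 482 CPM in Edf1 KO libraries). Egr1 rose from 13.4 ± 1.96 to 20.8 ± 1.99 CPM (0.60, SE 0.11) and Dusp1 from 15.6 ± 1.86 to 22.3 ± 2.56 CPM (0.51, SE 0.11). Without Edf1 KO replicate 2, 5 were called. Of 10 oxidative and metal stress genes 5 were lower and none higher, where 14.2% of all tested genes were lower, with a median of -0.15. Nqo1, which detoxifies quinones, fell from 42.9 ± 3.49 to 31.4 ± 2.38 CPM (-0.45, SE 0.082), and the metallothionein gene Mt2 from 1486 ± 114 to 1106 ± 138 CPM (-0.43, SE 0.080), with 56.1% of its 31-base words found in other genes. With DESeq2 size factors or library size alone, 1 gene of the oxidative and metal list was called higher beside the 5 lower. The part of handling in the rises of Hspa1b and Hspb1 was not tested.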

How the data were processed

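Messenger RNA libraries of 6 samples were analysed, 3 WT and 3 Edf1 KO. What the authors deposited are raw counts of reads for each gene symbol, 1 column per library. Per the submitters' processing notes, FastQC 0.11.2, cutadapt 1.11, HISAT2 2.1.0 and GRCm38 were used; the counting program, annotation and strand setting are not given in the sources used here. The counts were tested as deposited in R 4.3.3 with edgeR 4.0.16: filterByExpr (14243 of 22851 genes), TMM scaling, quasi-likelihood test of genotype, Benjamini-Hochberg adjustment over all tested genes, threshold 0.05. The SE is the absolute log2 fold change over the square root of F. CPM use TMM-scaled library sizes, and log2 CPM a prior count of 2. Fits were tested on simulated counts. Alternatives were DESeq2 size factors, library size alone, other filters, DESeq2 1.42.0, limma 3.58.1 (voom), a replicate block, a GC and length correction (natural splines, 4 degrees of freedom per property, values for 99.04% of genes), a threshold of 0.01, each library left out, and Hspa1a and Hspa1b summed. Positions, exon lengths and 31-base words came from GENCODE M21. The members and lists were chosen with earlier results of these data known. Named beyond the 10 genes are Edf1, Hsf1 and, per list, the 2 called genes with the largest change in each direction at a mean log2 CPM of at least 1; others were named after their values were seen.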

Additional observations from a re-analysis of the deposited data

How the results depend on the processing

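All 5 called genes among the 10, and the summed Hspa1 rows, kept their direction and call under every alternative run that could give them, and Hspa1a and Hspa1b have no row of their own once summed, where 4 of 8 rows were called beside the sum. Leaving out one library at a time left 5 of 10 genes called in each of the 6 fits, gave 2658 to 4340 called genes in all, and gave 0.57 to 0.66 for the Hspa1 sum. The threshold of 0.01 lowered the calls over all genes from 3833 to 2213. The genes with no call and a value near 0 changed sign: Hsp90ab1 to 0.040 and Hspe1 to 0.099 and Dnajb1 to 0.0099 with the GC and length correction; Hsp90ab1 to 0.0027, Hspe1 to 0.026 and Dnajb1 to 0.023 without WT replicate 2; Hsp90ab1 to 0.0068 without Edf1 KO replicate 1; and Dnajb1 to 0.022 without Edf1 KO replicate 3. With one library left out, their lowest values were -0.037 (Hsp90ab1), -0.057 (Dnajb1) and -0.064 (Hspe1). The cause was not tested. The GC and length correction moved the calls from 8 to 4 for TRiC and prefoldin, from 5 to 9 for endoplasmic reticulum chaperones and from 3 to 7 for the other Hsp70 proteins. These counts hold calls of both directions together. The radial glia and astrocyte markers had 6 calls higher and 2 lower, in place of 3 and 2, with library size alone and with no filter beyond 1 count, and 6 and 4 with the GC and length correction. At a threshold of 0.01, 3 TRiC, 6 Hsp90 cochaperone and 2 endoplasmic reticulum genes were called. The replicate block gave 4065 called genes and changed no call among the 10. Same-numbered libraries deviated together with correlations of 0.069, 0.060 and 0.037, each library's best match. The labels name no pairing and the main fit used none. Whether same-numbered libraries shared a batch was not tested. Depth limits Hspa1a and Hspa1b most, with 51 to 213 counts per library.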
